A study of Homo sapiens with 41 samples.

Results

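The genes described here, IL2RA, MYL2, CCDC63, LYZ, ITGAM and CD79A, mark cells other than breast epithelium and carried more RNA polymerase II (Pol II) after salt stress. They were followed through their gene spans, both flanks and the genes on either side. They were picked by name because their Pol II coverage was higher at 1 h of NaCl, so that coverage is described without a test. They are 6 of 19974 protein-coding genes on chromosomes 1 to 22 and X. IL2RA encodes the alpha chain of the interleukin 2 receptor of activated and regulatory T cells. CD79A encodes a signalling chain of the B cell receptor. ITGAM encodes the CD11b integrin chain of neutrophils and macrophages, and LYZ the lysozyme of the same myeloid cells. MYL2 encodes the regulatory myosin light chain of heart ventricle and slow muscle, and CCDC63 is a coiled-coil gene of the sperm flagellum that lies next to MYL2.

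The cells were T47D, an established line from a human luminal breast carcinoma, kept 48 h in hormone-depleted medium and then overnight without serum. Chromatin immunoprecipitation followed by sequencing gave lists of called regions, each from a single library, for Pol II, for CTCF and for RAD21. The Pol II lists were 2 from cells exposed for 1 h to 110 mM NaCl and 2 from untreated cells. For CTCF there were 3 lists at 1 h of NaCl, 1 at 30 min, 2 at 7.5 min, 1 after 1 h of NaCl followed by 1 h of isotonic medium (recovery) and 3 untreated. RAD21 had 3 lists from recovery, 3 at 1 h and 3 untreated. A further 3 lists of each of CTCF and RAD21 came from cells given 500 nM triptolide, an inhibitor of transcription initiation. They cover no stress, 1 h of NaCl and recovery, and only some of their titles call the triptolide a pre-treatment. The inputs were not analysed here. The labels do not say whether replicates were separate cultures, so every p-value measures spread among libraries that may be technical replicates.

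Pol II transcribes a gene from its promoter to a point past its end, where the transcript is cut and the enzyme released. Hyperosmotic stress is known in human cells to let Pol II run on far past the ends of active genes, so Pol II inside a silent gene can come from its own start or from a gene next to it. CTCF is the insulator protein that stops loop extrusion by cohesin, of which RAD21 is a subunit, and both can mark borders between neighbouring genes. The question put to each of the 6 genes was whether the Pol II called in it at 1 h of NaCl began at its own start or was joined to an active neighbour.

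The starts that RefSeq annotates for IL2RA, ITGAM and CD79A are printed first, because the answer turns on whether Pol II was called over them. The first annotated start of RPS19, the ribosomal protein gene next to CD79A, is shown beside them as that of a gene covered by Pol II in untreated cells. Each window runs 5′ to 3′ from 250 bases before to 50 after the start in GRCh38.p14, the build of the files (hg38), and capitals mark every CG pair. IL2RA lies at chr10:6062318-6062617 on the minus strand. ITGAM lies at chr16:31259725-31260024, CD79A at chr19:41877029-41877328 and RPS19 at chr19:41860005-41860304, all on the plus strand.
IL2RA: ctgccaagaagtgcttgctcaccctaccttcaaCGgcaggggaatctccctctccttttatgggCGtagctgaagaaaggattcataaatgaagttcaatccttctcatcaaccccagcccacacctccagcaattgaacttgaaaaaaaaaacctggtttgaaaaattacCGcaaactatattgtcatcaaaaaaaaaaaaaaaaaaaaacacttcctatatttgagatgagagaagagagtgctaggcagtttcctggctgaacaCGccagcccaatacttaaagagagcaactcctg
ITGAM: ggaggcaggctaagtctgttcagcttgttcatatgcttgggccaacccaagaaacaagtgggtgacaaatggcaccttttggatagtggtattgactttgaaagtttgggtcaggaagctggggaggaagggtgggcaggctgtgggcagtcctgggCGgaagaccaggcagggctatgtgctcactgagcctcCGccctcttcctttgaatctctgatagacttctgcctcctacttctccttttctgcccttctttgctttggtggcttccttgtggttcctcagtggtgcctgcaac
CD79A: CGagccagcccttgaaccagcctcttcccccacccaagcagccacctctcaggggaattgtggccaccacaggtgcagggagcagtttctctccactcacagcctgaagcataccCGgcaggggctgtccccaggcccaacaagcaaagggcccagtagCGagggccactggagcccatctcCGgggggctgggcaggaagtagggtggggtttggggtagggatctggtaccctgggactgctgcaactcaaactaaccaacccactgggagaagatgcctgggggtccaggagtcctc
RPS19: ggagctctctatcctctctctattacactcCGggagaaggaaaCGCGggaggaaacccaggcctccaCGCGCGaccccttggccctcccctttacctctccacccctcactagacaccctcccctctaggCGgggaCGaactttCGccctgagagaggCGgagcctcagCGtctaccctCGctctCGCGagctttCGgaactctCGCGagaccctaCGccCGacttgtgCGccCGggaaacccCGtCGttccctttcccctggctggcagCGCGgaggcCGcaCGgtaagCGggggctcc
The 3 starts of other-lineage genes were poor in CG pairs. IL2RA held 4, ITGAM 2 and CD79A 4 in 300 bases, against 28 in RPS19 and a median of 21 over 22140 annotated promoters. Short motifs were sought on both strands of these windows. The core of the TATA box, searched as TATAAA, is held by 9.47% of all promoters and was not found in the 3 windows. Nor was the AP-1 motif, searched as TGANTCA, which 6.16% of promoters hold. The NFAT core, searched as TGGAAA and held by 17.8% of promoters, was not found in them either. Promoter entries were matched for 3 of the 6 genes, and MYL2, CCDC63 and LYZ were therefore read at both gene ends.

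All 6 genes had more of their span inside Pol II regions in both 1 h lists than in both untreated lists, and 16.1% of all protein-coding genes met the same rule. Among genes with under 10% of their span covered in both untreated lists it was 28.9%. A difference of at least 10 percentage points between the nearest 1 h and untreated lists was likewise present in all 6, against 5.96% of all genes. These counts restate how the genes were chosen. The median gene had 2.93 and 7.27% of its span covered at 1 h of NaCl and 10.4 and 9.22% in untreated cells, and 35.2% of genes were lower in both 1 h lists.

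ITGAM and CD79A were covered almost throughout at 1 h of NaCl. ITGAM (chr16:31259975-31332877, 72.9 kb) had 98.1 and 95.1% of its span covered at 1 h, against 3.53 and 0% in untreated cells. CD79A (chr19:41877279-41881372, 4.1 kb) had 100 and 80.9% covered at 1 h and 0 and 0% in untreated cells. The other 4 genes were covered in part. MYL2 (chr12:110910845-110921449, 10.6 kb) had 55.4 and 25.5% covered at 1 h, against 0 and 6.68% untreated. LYZ (chr12:69348381-69354234, 5.9 kb) had 30.2 and 23.0% at 1 h, against 0 and 8.63% untreated. IL2RA (chr10:6010689-6062367, 51.7 kb) had 21.3 and 19.8% covered at 1 h, against 5.63 and 0.608% untreated. CCDC63 (chr12:110844486-110907535, 63.0 kb) had 19.8 and 23.0% at 1 h, against 3.30 and 6.54% untreated. The distance between the nearest lists was 91.6 percentage points in ITGAM and 80.9 in CD79A, and 13.3 to 18.8 in the other genes. The lists within a group differed by less than that distance in every gene except MYL2, where the 2 lists at 1 h lay further apart.

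**Figure D1:**
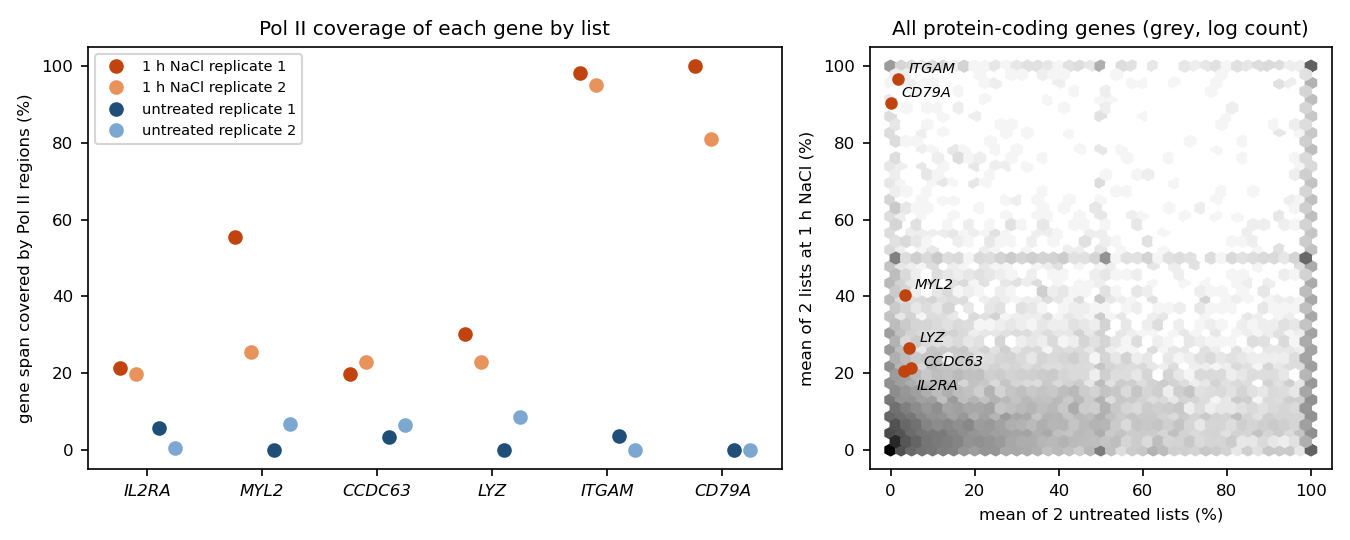
Left, the percentage of each gene span inside Pol II regions, 1 point per list, with 1 h NaCl left of untreated. Right, the mean of the 2 lists at 1 h against the mean of the 2 untreated lists for all 19974 genes, in which ITGAM and CD79A stand near the top left corner.

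ITGAM showed the clearest join to an active neighbour. In 1 h replicate 1 a single region ran through PYCARD, TRIM72 and PYDC1 into ITGAM and ended inside it at position 31310969 of chromosome 16. In 1 h replicate 2 a single region held the same 3 neighbours and ended in ITGAM at position 31279944. PYCARD, the inflammasome adaptor gene, is read away from ITGAM and was covered over 100% of its span in all 4 lists. The 57.2 kb between PYCARD and ITGAM were covered completely at 1 h, against 4.91 and 11.3% in untreated cells. TRIM72, a muscle gene in that interval read on the plus strand like ITGAM, was covered over 100 and 100% at 1 h and over 0 and 5.82% in untreated cells. The printed ITGAM start lay wholly inside the region in both 1 h lists and in no untreated region, and no edge of a region fell at it. Coverage went on past the far end of ITGAM, over 76.1 and 67.9% of the 22.3 kb up to ITGAX at 1 h, against 0 and 0% untreated. The regions crossing that end were weak. Their fold enrichment over the caller's background was 1.09 in 1 h replicate 1 and 1.21 in replicate 2, and neither reached a -log10 q of 1.3. With regions under 1.3 left out, the interval up to ITGAX was no longer higher at 1 h. Coverage was lower in ITGAX itself, an integrin gene of dendritic cells, with 23.6 and 24.7% at 1 h and 2.93 and 0% in untreated cells. The longest uncovered stretch between PYCARD and ITGAM was 0 kb in both 1 h lists, against 54.4 and 25.9 kb in untreated lists.

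CD79A lay just past the end of a gene that was active without stress. RPS19 ends 4.4 kb before CD79A starts, both genes are read on the plus strand, and RPS19 was covered over 53.8 and 67.8% at 1 h, against 100 and 100% in untreated cells. Untreated regions ran through RPS19 and stopped 1.11 and 1.93 kb short of the CD79A start. The gap between the 2 genes was covered over 100 and 53.5% at 1 h and 74.6 and 55.8% in untreated cells, so it was not higher at 1 h. In 1 h replicate 1, 1 region of 18.4 kb ran from RPS19 through CD79A into ARHGEF1 (chr19:41866109-41884530). In 1 h replicate 2 the coverage was broken, 2 regions overlapped CD79A and the widest was 3.6 kb. The first began at position 41874949 of chromosome 19, and the 2.0 kb from the end of RPS19 to it were uncovered. A single region from RPS19 into CD79A was thus called in replicate 1 only. The printed CD79A window was covered completely in both 1 h lists and not at all in untreated lists, while the RPS19 window had 0 and 77.7% of its bases covered at 1 h and 100 and 100% in untreated cells. All 3 regions in CD79A at 1 h were weak. The authors' fold enrichment, each region's own value against the caller's background, was 1.15 in replicate 1 and at most 1.56 in replicate 2, and none reached a -log10 q of 1.3. With regions under 1.3 left out, CD79A had no Pol II left in either list at 1 h.

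**Figure D2:**
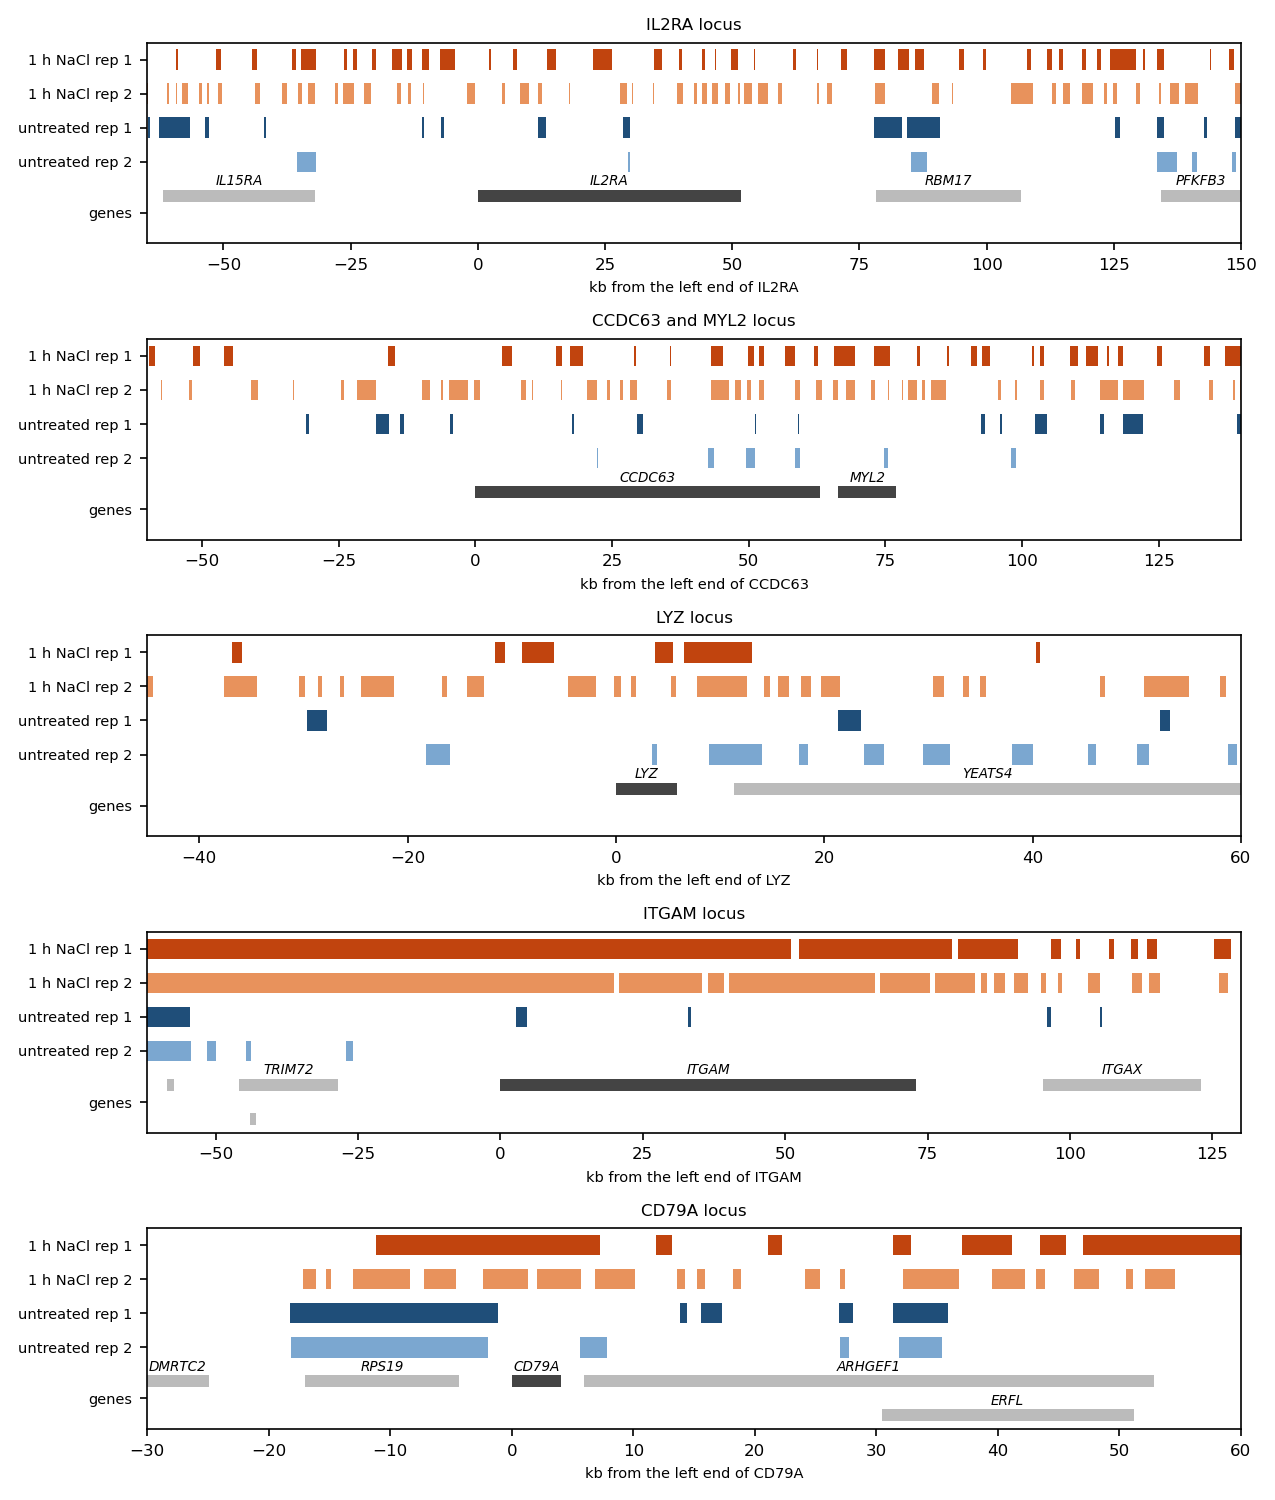
Pol II regions in the 4 lists, 1 h NaCl above untreated, with gene spans below, by distance in kb from the left end of the named gene. At 1 h the regions over ITGAM are joined to those over PYCARD, the leftmost gene drawn there, and CD79A inside regions next to those of RPS19, while the regions at IL2RA, CCDC63 and MYL2 are short and many.

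No single Pol II region joined IL2RA to another gene. Its coverage came from 9 and 13 separate short regions at 1 h, the widest 3.9 and 1.8 kb long, and from 2 and 1 regions in untreated cells, and none touched another gene. The flanking genes are both read away from it. RBM17, a splicing factor gene 26.7 kb before the IL2RA start, had 25.8 and 17.9% of its span covered at 1 h and 39.6 and 10.4% in untreated cells, and IL15RA, 31.9 kb past its end, 20.2 and 27.1% at 1 h and 21.1 and 12.2% in untreated cells. Neither flanking gene was therefore higher in both 1 h lists. The nearest genes with at least 50% of their span covered in both untreated lists were GDI2, 197.3 kb past the end of IL2RA and read away from it, and KIN, 1688.6 kb before its start. The nearest region to the IL2RA start was 0.61 and 0.24 kb away at 1 h, against 21.8 and 21.8 kb in untreated cells, and the printed 300 bases were covered in none of the 4 lists. Within 1 kb of the start IL2RA therefore had Pol II in both 1 h lists and in no untreated list, and within 500 bases it did not.

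The regions at IL2RA stood out by their fold enrichment. The highest was 11.0 and 9.13 at 1 h, at percentiles 98.7 and 99.0 of all regions in those lists, against 1.15 and 1.05 in untreated cells. They belonged to a much longer run. Counting outward from IL2RA for as long as each next region was in the top 10% of its list by fold, the run spanned 252.9 kb with 48 regions in 1 h replicate 1 (chr10:5914051-6166950) and 399.3 kb with 103 regions in replicate 2 (chr10:5802009-6201266). Both runs held FBH1, IL15RA, IL2RA, RBM17 and the first part of PFKFB3, a glycolysis regulator. The run of replicate 2 also held ANKRD16 and began inside GDI2, which had 50.2 and 25.8% of its span covered at 1 h and 97.4 and 100% in untreated cells. It thus reached, through regions with gaps between them, a gene with at least 50% covered in both untreated lists. The run of replicate 1 did not, but both runs held genes above 50% in 1 untreated list. FBH1 had 17.3 and 28.1% covered at 1 h and 71.3 and 14.8% in untreated cells. PFKFB3 had 67.6 and 35.7% at 1 h and 23.4 and 65.6% in untreated cells. The highest fold of the run was not in IL2RA in either list. In replicate 1 it was 35.0, between RBM17 and PFKFB3 (chr10:6122582-6123598), and in replicate 2 it was 14.0, in IL15RA (chr10:5957495-5957887). The lists at 1 h held 187 and 182 runs of at least 100 kb and 10 regions, against 104 and 59 in untreated lists, and by length the IL2RA run ranked 91 and 25 among all runs. The longest run of each list was 3259 and 18020 kb at 1 h and 3496 and 2757 kb in untreated cells. No region in IL2RA was in the top 10% of an untreated list.

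CCDC63 and MYL2 lay in the same run of separate Pol II regions. They are 3.3 kb apart, and that gap was covered over 25.3 and 42.3% at 1 h of NaCl and over 0 and 0% in untreated cells. In 1 h replicate 1 the highest fold enrichment of the locus, 20.0 at percentile 99.7, lay near the right end of CCDC63, on the side of MYL2 (chr12:110906398-110907211), and that of MYL2 was 16.3. In 1 h replicate 2 the highest values were 3.90 in CCDC63 and 3.47 in MYL2, and in untreated lists no region in either gene was above 1.83. The 25% of the MYL2 span nearest to CCDC63 was covered over 100 and 48.9% at 1 h and 0 and 0% in untreated cells, while no region lay within 1 kb of the right end of MYL2 in any list. The longest unbroken run of such top-ranked regions around them spanned 106.3 kb with 21 regions in 1 h replicate 1 and 26.0 kb with 8 regions in replicate 2, and held no other protein-coding gene. By length it ranked 259 of 2418 runs in replicate 1 and 906 of 6934 in replicate 2. A neighbour is called active here when at least 50% of its span was covered in both untreated lists, a limit set after seeing the data. The nearest active gene on the left was PPP1CC, a protein phosphatase gene 101.6 kb from CCDC63 and read away from it, with 55.0 and 39.5% covered at 1 h and 100 and 100% in untreated cells. Between PPP1CC and CCDC63 the coverage was 13.6 and 18.8% at 1 h and 6.77 and 4.11% in untreated cells, with uncovered stretches of up to 28.2 and 13.2 kb at 1 h. On the other side lay CUX2, a homeobox gene 112.7 kb from MYL2 and read away from it, with 37.5 and 21.4% covered at 1 h and 13.8 and 8.96% in untreated cells, and the nearest active gene on that side, ATXN2, was 530.8 kb away. No region in CCDC63 or MYL2 reached another gene in any list.

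LYZ held few and weak Pol II regions. A single region with fold enrichment 1.04 lay in it in 1 h replicate 1 and 3 regions of at most 2.07 in replicate 2, and 1 of these 4 reached a -log10 q of 1.3. YEATS4, a chromatin reader gene that starts 5.5 kb away and is read away from LYZ, had 5.44 and 30.3% of its span covered at 1 h and 4.75 and 27.8% in untreated cells. The gap between them was covered over 88.4 and 64.2% at 1 h, against 0 and 44.6% in untreated cells. The side of LYZ next to that gap had a region within 0.37 and 0.10 kb of the gene end at 1 h, against 15.5 and 1.91 kb in untreated cells. On the far side CPSF6, a pre-mRNA cleavage factor gene read toward LYZ, was 74.0 kb away and its interval was not higher at 1 h. That interval was covered over 15.6 and 22.9% at 1 h and 4.20 and 31.2% in untreated cells. CPSF6 itself had 13.0 and 5.45% at 1 h and 0 and 87.3% untreated, so the untreated lists disagreed. Without untreated replicate 2 the interval was higher at 1 h. With regions under a -log10 q of 1.3 left out, LYZ was no longer higher at 1 h.

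**Figure D3:**
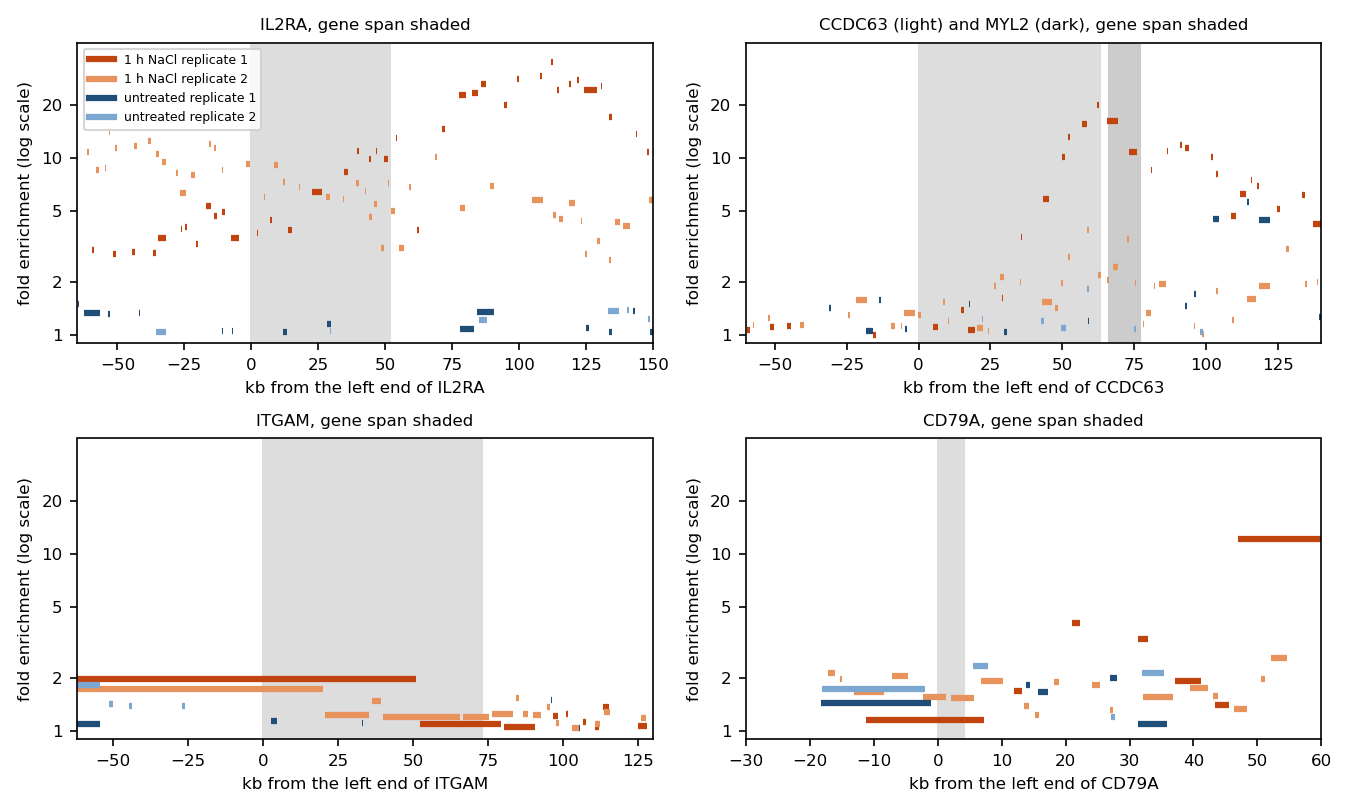
The authors' fold enrichment of each Pol II region, on a log axis, by distance in kb from the left end of the gene, with the gene span shaded. Regions at IL2RA and at CCDC63 and MYL2 reach 11.0 and 20.0 at 1 h NaCl, while those over ITGAM and CD79A stay at or below 1.98.

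Over the 6 genes, Pol II within 1 kb of the annotated start, or of either end where no strand was matched, was called in both 1 h lists and in no untreated list for all 6, against 3.15% of all genes. For the 3 genes with a matched strand it was 3 of 3, against 2.33%. The contrast is the one that chose the genes, so nothing is read from either share. Windows of 2 kb kept 4 of the 6, since LYZ and CD79A had untreated Pol II within 2 kb, and 500 bases kept 5. The intervals beside the genes adjoin spans chosen on this same contrast, so their count is likewise a description from which nothing is read. Of the 11 intervals between these genes and their neighbours 9 were higher in both 1 h lists, against 20.1% of intervals to the left neighbour over all genes. The exceptions were those from RPS19 to CD79A and from CPSF6 to LYZ. Of the 10 flanking genes that are not members, 9 had a strand. TRIM72, RPS19 and CPSF6 were read toward the gene they flank and the other 6 away from it.

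The count of genes higher at 1 h changed with score filters. With only regions of -log10 q of at least 1.3, 4 of the 6 (IL2RA, MYL2, CCDC63 and ITGAM) remained higher at 1 h, and with only the top 10% of each list by fold enrichment, an alternative chosen after seeing the data, 3 did (IL2RA, MYL2 and CCDC63). The share of all genes higher under either filter was not computed, so nothing is read from these counts. The mean difference in ITGAM, 94.9 percentage points as deposited, was 48.7 points with the first filter and 13.7 with the second, and that in CCDC63 was 16.5 points as deposited, 9.02 with the first filter and 10.0 with the second. IL2RA (17.4 points as deposited) and MYL2 (37.1) stood at 20.6 and 40.4 points with either filter. The intervals higher at 1 h numbered 4 of 11 with the first filter and 3 with the second. The Pol II lists differed as a whole in the same measure. A -log10 q under 1.3 was deposited for 80.1 and 92.4% of regions at 1 h and for 50.0 and 48.5% in untreated lists, and its part in the results was not tested. Read totals are not in the lists, which held 107396 and 216968 regions at 1 h and 105302 and 88046 in untreated cells.

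Other genes of the same lineages were counted without the 6, which had been chosen for being higher. Of 17 genes of T cells and the interleukin 2 receptor 6 were higher in both 1 h lists and 4 lower, and the 6 included the receptor beta chain IL2RB (2.26 and 3.40% at 1 h, 2.03 and 0% untreated) and the T cell receptor chain CD3D (6.61 and 34.3% at 1 h, 0 and 0% untreated). FOXP3, the regulatory T cell factor, had 0 and 0% at 1 h and 54.2 and 51.1% in untreated cells. Of 13 B cell genes 3 were higher and 3 lower, and CD79B, which encodes the partner chain of CD79A, had 100 and 71.3% at 1 h and 0 and 0% in untreated cells, and the B cell kinase gene BLK 1.53 and 1.67% at 1 h and 1.06 and 0% untreated. Of 14 myeloid genes 7 were higher and 2 lower, and the higher ones included the neutrophil elastase gene ELANE with 100 and 68.2% at 1 h and 0 and 0% untreated. Another of these 7 was ITGAX, the gene next to ITGAM, so the count is not separate from the chosen locus. Cardiac and skeletal muscle genes were higher in 3 of 17 and lower in 3, with the myosin light chain gene MYL3 at 15.5 and 25.3% at 1 h and 0 and 0% untreated and the cardiac actin gene ACTC1 at 73.7 and 95.7% at 1 h and 0 and 0% untreated. NPPA, among the lower ones, had 0 and 0% at 1 h and 100 and 100% untreated. Most of the muscle list was neither higher nor lower. Genes of the sperm flagellum and cilium were higher in 7 of 13 and lower in 0. Of the dynein docking genes, ODAD1 had 9.68 and 20.7% at 1 h and 7.62 and 6.90% untreated, and ODAD2 had 74.4 and 62.2% at 1 h and 1.77 and 0.740% untreated. ODAD3 had 71.1 and 24.9% at 1 h and 7.12 and 26.7% untreated, which overlap. The background was 16.1% higher and 35.2% lower over all genes. Among genes with under 10% covered in both untreated lists, as many of these lineage genes were, it was 28.9% higher. The lineage lists were not divided by that limit.

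Lists of other cell types, with none of the 6 genes in them, were counted in the same way. Hepatocyte genes were higher in 0 of 14, neuronal genes in 3 of 12 (RBFOX3, GAD1 and CAMK2A) and fibroblast genes in 3 of 10 (DCN, PDGFRA and PDGFRB). Of 18 genes of luminal breast epithelium 1, SPDEF, was higher (11.4 and 80.7% at 1 h, 0 and 0% untreated) and 8 were lower, with medians of 23.1 and 57.2% at 1 h and 100 and 100% in untreated cells. KRT19, XBP1, ELF3 and MUC1 were covered over 100% in all 4 lists, as the labelled line would have them. KRT18 had no region in any list. The gene lists were drawn up with earlier results of these data known, and their counts are descriptions.

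**Figure D4:**
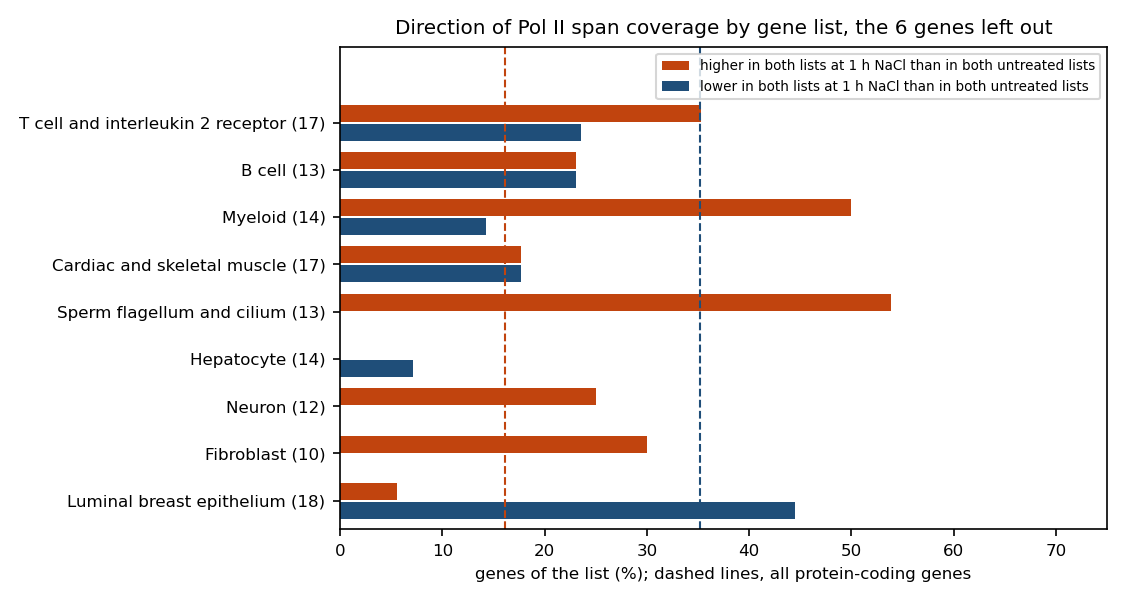
Percentage of each gene list that was higher (upper bar) or lower (lower bar) in both 1 h NaCl lists than in both untreated lists, the 6 genes left out, with the number of genes in brackets and the values over all genes as dashed lines. The myeloid and the flagellum lists reach 7 of 14 and 7 of 13 higher. The myeloid 7 include ITGAX, the gene next to ITGAM. The share higher among all genes under 10% covered in both untreated lists, 28.9%, is not drawn.

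The gene closest to each member in coverage over the 4 lists, among genes of comparable span, was of unrelated name in every case. For ITGAM it was the kinesin gene KIF21B (100 and 95.2% at 1 h, 4.93 and 2.76% untreated), with a summed difference of 6.11 percentage points over 4 lists. For CD79A it was CYP17A1, a steroid hydroxylase gene (100 and 84.5% at 1 h, 0 and 0% untreated), with 3.55 points. For IL2RA it was NCAN with 5.36 points, for MYL2 ALKBH4 with 11.5, for CCDC63 EFCAB3 with 1.14 and for LYZ RBP4 with 6.18.

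CTCF peaks near IL2RA and ITGAM were fewer in every library at 1 h of NaCl than in any untreated library. Within 50 kb of IL2RA there were 5, 4 and 5 CTCF peaks at 1 h and 8, 6 and 6 in untreated cells (4.67 ± 0.577 at 1 h against 6.67 ± 1.15 untreated, SD, n = 3 each, exact 2-sided permutation p = 0.1). ITGAM had 2, 2 and 1 at 1 h and 4, 3 and 5 in untreated cells (1.67 ± 0.577 at 1 h against 4.00 ± 1.00 untreated, SD, n = 3 each, exact permutation p = 0.1). In both genes the 2 groups did not overlap, and 3 libraries against 3 cannot give a p under 0.1. Such separation was found for 2 of the 6 genes, against 13.5% of all genes with a CTCF peak, and none of the 6 was higher in all 1 h libraries, against 0.00514%. Compared within replicate numbers, 1 h was lower in every pair for 4 of 6 genes (IL2RA, MYL2, CCDC63 and ITGAM), an exact comparison that cannot go below p = 0.25. The share of all genes lower in every such pair was not computed, so nothing is read from this count. MYL2 and CCDC63 lie side by side, and their windows share sites. CD79A had 3, 3 and 2 peaks at 1 h and 7, 3 and 6 in untreated cells, which overlap (exact permutation p = 0.3). MYL2 averaged 4.33 ± 0.577 peaks at 1 h and 6.00 ± 1.00 untreated, CCDC63 5.33 ± 0.577 at 1 h and 6.33 ± 0.577 untreated, and LYZ 1.67 ± 0.577 at 1 h and 2.00 ± 0 untreated (SD, n = 3 each), with exact permutation p = 0.2, 0.3 and 1. The CTCF lists at 1 h were shorter as a whole, and the average gene with a peak had 2.88 peaks within 50 kb at 1 h and 4.39 in untreated cells. With the same number of strongest peaks taken from each list, 22018, the groups did not separate for any of the 6 genes. Within the first submission (2 libraries against 2) the count was 3 of 6, without 1 h replicate 1 it was 4, and at a -log10 q of at least 5 it was 1, IL2RA.

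No RAD21 peak was listed at 1 h within 50 kb of IL2RA, ITGAM and CD79A, while MYL2 and CCDC63 had 3 or 4 in every library at 1 h. IL2RA had 0, 0 and 0 peaks within 50 kb at 1 h and 2, 2 and 3 in untreated cells, ITGAM 0, 0 and 0 at 1 h and 2, 1 and 3 untreated, and CD79A 0, 0 and 0 at 1 h and 1, 1 and 1 untreated (exact permutation p = 0.1 in each, n = 3 each). That is 3 of 6 genes, against 34.3% of all genes with a RAD21 peak, and none was higher at 1 h, against 0%. MYL2 had 3, 4 and 3 peaks at 1 h and 3, 3 and 4 in untreated cells, and CCDC63 3, 4 and 4 at 1 h and 4, 4 and 5 untreated, so the groups overlapped. LYZ had 0, 0 and 1 at 1 h and 1, 0 and 2 in untreated cells. The RAD21 lists were shorter as well, with 4761, 7843 and 6630 peaks at 1 h against 18297, 13762 and 24931 in untreated cells. Over all genes the median number of RAD21 peaks within 50 kb was 0 in every 1 h list and 1, 1 and 2 in untreated lists. A count of 0 at 1 h was therefore usual for a gene and not particular to these. When the strongest 4761 of each list were compared, no gene of the 6 was separated. Within 25 kb CD79A alone was separated, and within the first submission the count was 3 of 6.

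After recovery RAD21 was listed within 50 kb of ITGAM in all 3 libraries. The site they shared lay at the end of ITGAX, 49.6 kb past ITGAM and so near the edge of the window. The site 0.8 kb past ITGAM had RAD21 in 1 of 3 recovery lists. ITGAM had 1, 2 and 1 peaks within 50 kb after recovery and 0, 0 and 0 at 1 h (1.33 ± 0.577 after recovery against 0 ± 0 at 1 h, SD, n = 3 each, exact permutation p = 0.1). Among all genes with a RAD21 peak, 2.17% were higher in every recovery library, and ITGAM was the 1 of 6 here. None of the 6 was lower in every recovery library, against 0.0375%. Replicate 2 held the most peaks of the recovery lists (20400, against 4397 and 6492 in the others), and in it IL2RA had 3 RAD21 peaks and CD79A 1, while both had 0 in the other 2 recovery lists. For these and the remaining genes the recovery and 1 h libraries overlapped.

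**Figure D5:**
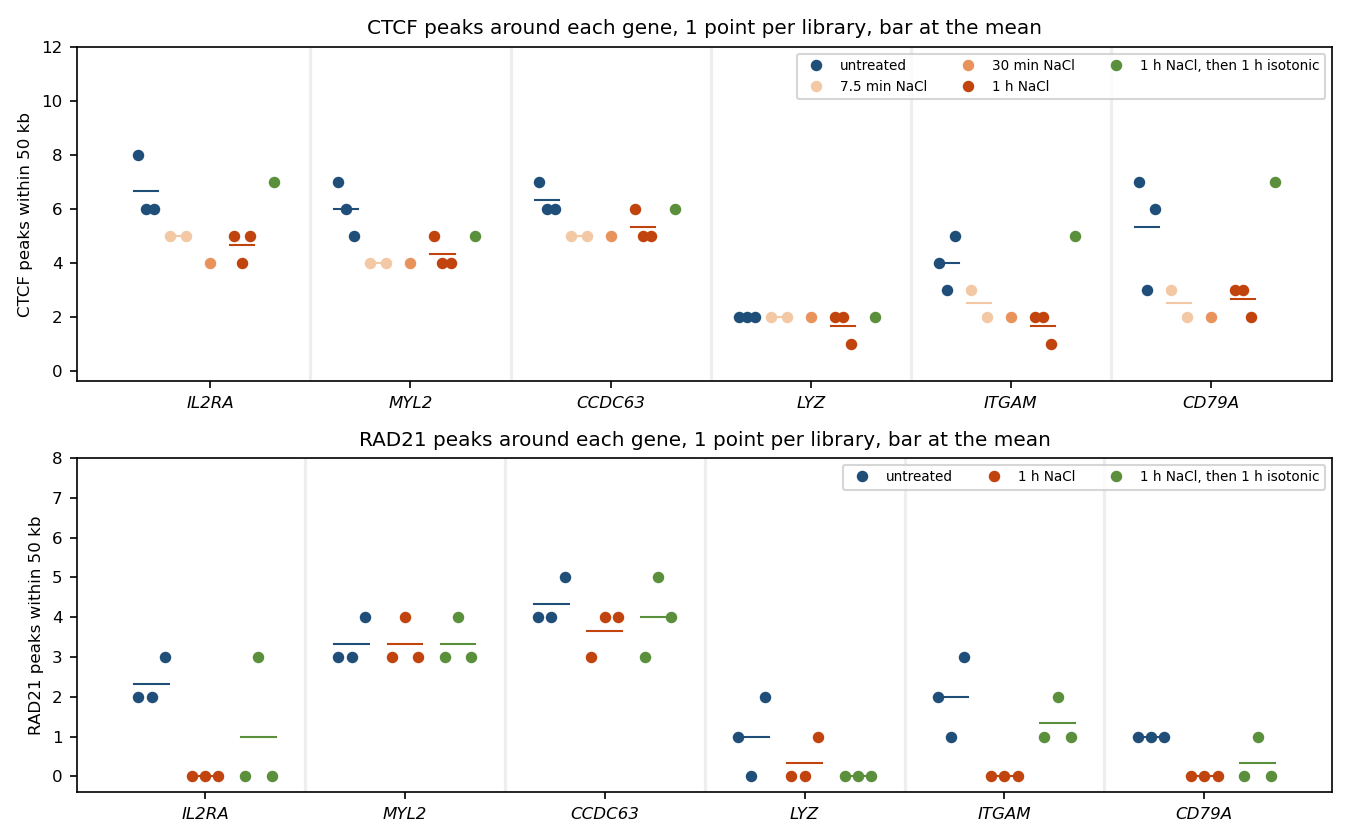
Number of CTCF peaks (top) and RAD21 peaks (bottom) within 50 kb of each gene, 1 point per library and a bar at the mean, in order from untreated through NaCl to recovery. RAD21 points at 1 h lie at 0 for IL2RA, ITGAM and CD79A and between 3 and 4 for MYL2 and CCDC63. The median over all genes, not drawn, was 0 in every RAD21 list at 1 h.

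Single sites differed in what remained. Around the 6 genes 20 CTCF sites were present in all 3 untreated lists, of which 12 were in all 3 lists at 1 h (57.1% over the genome) and 2 in none (5.85%). Of 7 such RAD21 sites 3 remained in all 1 h lists (34.5%) and 3 were in none (32.4%), and no site of either protein was present in all 1 h lists and absent without stress. The genome shares are of sites merged from untreated and 1 h lists only, while sites around the 6 genes were merged from all lists of a protein. The 3 RAD21 sites that remained all lie at CCDC63 and MYL2. They pair with CTCF sites in CCDC63, 19.6 and 13.4 kb from its right end (chr12:110887886-110888590 and chr12:110894132-110894854), and 15.4 kb past MYL2 (chr12:110936843-110937584), and all were in all 13 CTCF and all 12 RAD21 lists, triptolide included. A RAD21 site 17.9 kb from the left end of CCDC63 (chr12:110826574-110827141) was in 1 of 3 lists at 1 h and 3 of 3 untreated, while CTCF there was in all 13 lists. The region of highest Pol II fold in 1 h replicate 1 lay between the pair nearest the right end of CCDC63 and the pair past MYL2. High regions were not limited to that stretch, since a region of fold enrichment 11.4 overlapped the pair past MYL2 and another of 10.1 lay beyond it.

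At ITGAM the site that disappeared lay 0.8 kb past the far end of the gene (chr16:31333703-31334104). It was in 3 of 3 untreated CTCF lists, in 0 of 3 at 1 h and in the recovery list. RAD21 there was in 0 of 3 lists at 1 h, 2 of 3 untreated and 1 of 3 after recovery. A CTCF site inside ITGAM (chr16:31298919-31299552) was in 2 of 3 lists at 1 h and 3 of 3 untreated, with RAD21 there in 0 of 3 lists at 1 h and 1 of 3 untreated. Further on, a site at the end of ITGAX (chr16:31382414-31383145) kept CTCF in all 13 lists, while RAD21 was there in 3 of 3 recovery lists, 0 of 3 at 1 h and 3 of 3 untreated. None of the CTCF sites within 50 kb before the ITGAM start was in more than 1 untreated list. The long Pol II region of 1 h replicate 1 crossed the inside site, and that of replicate 2 ended before it.

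Between RPS19 and CD79A there was 1 site, 4.2 kb before the CD79A start (chr19:41873033-41873595). It had CTCF in 2 of 3 lists at 1 h and 3 of 3 untreated, and 12 of 13 lists in all. RAD21 was there in 0 of 3 lists at 1 h, 3 of 3 untreated and 1 of 3 after recovery. Under triptolide RAD21 was there without stress and after recovery and not at 1 h. Pol II regions covered this site in both untreated lists and in 1 h replicate 1, and not in 1 h replicate 2.

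In IL2RA a CTCF site 11.6 kb from the start (chr10:6050788-6051205) was in 0 of 3 lists at 1 h, in 3 of 3 untreated and in the recovery list, and another near its far end (chr10:6013956-6014673) was in 3 of 3 in both groups. On the side of RBM17 2 sites stood in all 13 CTCF lists, at 23.9 and 26.1 kb from the IL2RA start, the second at the start of RBM17. RAD21 at that second site was in 0 of 3 lists at 1 h, 3 of 3 untreated and 1 of 3 after recovery. LYZ and YEATS4 are divided by a CTCF site in all 13 lists (chr12:69357218-69357963), where RAD21 was in 1 of 3 lists at 1 h and 2 of 3 untreated. It lay inside the interval that Pol II covered at 1 h.

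With triptolide there was 1 list per protein and condition, without a replicate check. CTCF peaks within 50 kb with triptolide numbered 3 at 1 h and 7 without stress at IL2RA, 2 at 1 h and 3 without stress at ITGAM, 3 at 1 h and 5 without stress at CD79A, 1 at 1 h and 2 without stress at LYZ, 4 at 1 h and 4 without stress at MYL2 and 5 at 1 h and 5 without stress at CCDC63. RAD21 peaks with triptolide numbered 0 at 1 h and 5 without stress at IL2RA, 0 at 1 h and 4 without stress at ITGAM, 0 at 1 h and 1 without stress at CD79A, 0 at 1 h and 3 without stress at LYZ, 3 at 1 h and 4 without stress at MYL2 and 4 at 1 h and 5 without stress at CCDC63. At 7.5 min ITGAM had 3 and 2 CTCF peaks and at 30 min 2, and IL2RA 5 and 5 and then 4. No Pol II list with triptolide or from recovery was analysed here.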

How the data were processed

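The submitters' processing notes name cutadapt, Bowtie2 2.2.6, MACS2 and hg38, and for the first submission also DiffBind 2.4.6, DESeq2 and HOMER; the threshold, the control and each tool's role are not given there. The lists have the layout of MACS2, 1 per library. The authors deposited for each peak an integer score, a fold enrichment (a ratio to the caller's background), a -log10 p and a -log10 q, which were used only to describe, rank or filter peaks within a list. Depth is unknown.

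Groups follow the titles. Titles and tags disagree on triptolide in part of the second submission and on some replicate numbers, and titles give 110 mM NaCl where the series text gives 100 mM. The second submission supplied replicate 3 of CTCF and RAD21 and all triptolide lists.

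Chromosomes 1 to 22 and X of each list were analysed with Python 3.11.15, numpy 2.4.6 and pandas 2.3.3, and figures were drawn with matplotlib 3.10.9. Genes are RefSeq spans and promoters of GRCh38.p14. Coverage is the share of a span inside merged regions. A neighbour is the nearest protein-coding gene without overlap. CTCF and RAD21 peaks overlapping a gene or its 50 kb flanks were counted, and groups compared per gene by an exact permutation test of the mean difference. Overlapping peaks of all lists were merged into sites. Libraries with the same number deviated together over 19974 genes for CTCF (r = 0.42, 0.62 and 0.63) and for RAD21 from recovery and 1 h (0.34, 0.33 and 0.14). Replicate 3 is shared only by submission. The functions were tested on simulated data.

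The named genes are the 6, their neighbours, the gene of comparable span with the smallest summed coverage difference, and up to 3 higher genes per list in list order. FOXP3, ELANE, NPPA, ODAD3, the fully covered luminal genes, KRT18 and the genes inside long regions or runs were named after their values were seen. Part of the ITGAM locus is not reported here. The 6 genes and all lists were chosen with earlier results of these data known.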

Additional observations from a re-analysis of the deposited data

How the results depend on the processing

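The count of genes higher in Pol II coverage at 1 h was 6 with regions joined across 1 kb, with a difference of at least 10 points, with coverage divided by each list's total, in the replicate block (1 h above untreated within both numbers) and without any 1 list, 4 at a -log10 q of at least 1.3, and 3 with the top 10% by fold, chosen after seeing the data. Genes with Pol II at the start numbered 3 with the top 10% by fold, and 6 without any 1 list. Intervals higher at 1 h numbered 4 at a -log10 q of at least 1.3, 3 with the top 10% by fold, and 9 to 10 without any 1 list. For CTCF the separated genes numbered 1 at a -log10 q of at least 5, 0 with equal numbers of strongest peaks, 4 in the replicate block and 2 to 4 without any 1 library, the 4 being without 1 h replicate 1. For RAD21 they numbered 1 within 25 kb, 0 with equal numbers and 3 without any 1 library, and after recovery 1 without any 1 library. Differences in the opposite direction appeared for CTCF with equal numbers at MYL2 (0.667 peaks) and CCDC63 (1.33), and for RAD21 after recovery at CCDC63 without recovery replicate 2 (-0.167, of a range from -0.167 to 0.833 over single libraries left out). The cause was not tested. Same-numbered RAD21 libraries at 1 h and untreated (r = -0.02, 0.12 and 0.14) and Pol II libraries (r = 0.04) were not taken as paired, and the block moved no other count. Apart from the difference of at least 10 points, shares over all genes were not computed for these settings. Depth could not be had from the lists.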
